A study of Mus musculus with 6 samples.

Results

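Eya and Six-family genes encode partners in a transcriptional complex, and 7 of them, Eya1, Eya2, Eya3, Eya4, Six2, Six4 and Six5, are described here out of 15648 genes of the authors' deposited table. The table compares the raised dorsal region of the tongue that lies between the molars, the intermolar eminence, in 2 groups of C57BL/6 mice at the embryonic stage E17.5, and asks which genes differ between them. One group holds 3 wild-type (WT) libraries and the other 3 libraries labelled Fst-KO, from mutants of Fst, the gene for the secreted activin and BMP antagonist follistatin. The sources used here do not say what the mutant allele removes or whether it acts in the whole animal. The tissue label names tongue epithelium, while the extraction protocol names the dissected eminence. The 7 genes were chosen by name from the rows present in that table, with their group means and the ratio of labelled Fst-KO over WT already known. Those values, and the p-values and false discovery rates (FDR) of the same comparison, are therefore a description of the genes and no independent test of them. The table gives 1 mean per group and no value per library, so neither a standard deviation nor the overlap of libraries can be given for any gene, and the read depth is unknown.

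Six-family proteins are homeodomain transcription factors, which bind DNA but activate poorly alone. Eya proteins do not bind DNA themselves. They are recruited by Six-family proteins as coactivators and carry a phosphatase domain, while Dach proteins and Groucho-type co-repressors can turn the same Six-family proteins towards repression. In the embryo this network acts downstream of or beside Pax genes in sensory placodes, kidney, craniofacial mesenchyme and skeletal muscle. In muscle precursors Six-family and Eya proteins act upstream of the myogenic regulators, and in myofibres they are known for activating genes of the fast type.

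Facts of the whole table bear on every value below. The targeted gene, Fst, had a mean of 69.7 in the libraries labelled Fst-KO and 33.2 in WT, a quotient of 2.10 (FDR 0.0158, authors' deposited table), and so went against its label. Deleted and retained exons are not told apart by a single value per gene, and all directions here are those of the labels. The median ratio of all 15648 genes was 1.14, or 0.18 on the log2 scale, and 81.0% of genes had a ratio above 1. A gene near 1.14 was thus in the middle of the table. The sex-linked genes also differed between the group means: Xist, which is expressed from the inactive X chromosome, had a ratio of 5.19, and 4 Y-linked genes had ratios from 0.548 to 0.642 by the authors' deposited table, none of the 5 with an FDR under 0.05. Whether this, or the makeup of the dissected tissue, has a part in the differences of Eya and Six-family genes was not tested.

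The Eya genes spread widely around the middle of the table, and the Six-family genes did not. Eya2 had by far the highest ratio of the 7, at 6.49, and alone among them had an FDR below 0.05 by the authors' deposited table. Over all genes that threshold was met by 0.0767% in the higher direction (12 genes) and by 0.0192% in the lower direction (3 genes). Eya1 followed at 1.71, Eya3 lay at 1.08, and Eya4, at 0.788, was the only one of the 7 below 1 by the authors' deposited table. The 3 Six-family genes lay between 1.04 and 1.18 by the authors' deposited table. An unadjusted p under 0.05 was reached by Eya2 and Eya1, both higher, against 13.4% of all genes in that direction and 2.17% in the lower one. Because these values also chose the genes, nothing is read from the counts. Relative to the median of all genes, 4 of the 7 (Eya2, Eya1, Six5 and Six2) lay above and 3 (Eya3, Eya4 and Six4) below, so that the side on which Eya3 and Six4 lie depends on the scale.

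**Figure D1:**
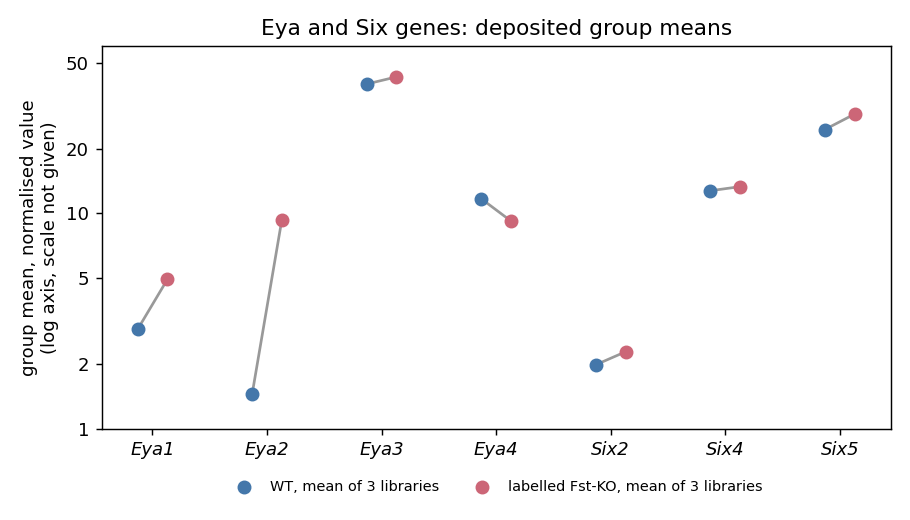
Deposited group means of the 7 genes on a log axis (normalised value, scale not given), with 1 point for WT and 1 for the libraries labelled Fst-KO, each a mean of 3 libraries with no error available. The line of Eya2 is the steepest, from 1.44 to 9.37, and that of Eya4 is the only one that slopes down, from 11.7 to 9.22.

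Eya2, a coactivator found in muscle precursors and cranial placodes, had the largest difference of the 7 in log2 ratio. Its mean was 1.44 in WT and 9.37 in the libraries labelled Fst-KO, a difference of 7.92 on the normalised scale and of 2.70 in log2 ratio (p-value 1.40e-05 and FDR 0.0219, authors' deposited table). In rank it was 8 of 15648 by ratio and 10 by p-value. Relative to the median of all genes its ratio was 5.71. Of the 500 genes nearest to it in mean, only 1 lay farther from that median on the log2 scale. The WT mean was close to the low end of the table, where the smallest geometric mean of both groups was 1.01, and the ratio of so low a mean depends strongly on any constant added to it. With 1 added to both means the log2 ratio was 2.08, and with 10 added it was 0.76.

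Eya1, a coactivator needed for the ear, kidney and branchial arch derivatives, had the next largest difference. Its means were 2.89 in WT and 4.93 in the libraries labelled Fst-KO, a log2 ratio of 0.77 (p-value 0.0112 and FDR 0.290, authors' deposited table). It missed the FDR threshold, and 52 of the 500 genes nearest in mean lay farther from the median of all genes. Eya4, known for its part in hearing and the heart, pointed the other way. Its means were 11.7 in WT and 9.22 in the libraries labelled Fst-KO, a log2 ratio of -0.34 (p-value 0.0535 and FDR 0.321, authors' deposited table). That ratio was at percentile 4.21 of all genes, and 31 of the 500 genes nearest in mean lay farther from the median. Eya3, the broadly expressed member of the family, had means of 39.9 and 43.1 (ratio 1.08, FDR 0.493, authors' deposited table). It lay at percentile 34.6 of all genes, below their median.

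Within the Eya family the ratios therefore spanned 8.24-fold, from Eya4 to Eya2, and 3.80-fold separated Eya2 from Eya1. These quotients between genes were not tested, since no value per library is given. The 3 Six-family genes spanned 1.13-fold.

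Six5, which lies beside the myotonic dystrophy kinase gene Dmpk, had the highest ratio of the 3 Six-family genes. Its means were 24.5 in WT and 28.95 in the libraries labelled Fst-KO, which the authors' deposited table gives as a ratio of 1.18 (p-value 0.0577, FDR 0.321). Relative to the median of all genes this was a ratio of 1.04, at percentile 62.1. Six4, a factor of muscle development, had means of 12.7 and 13.3 (ratio 1.04, FDR 0.766, authors' deposited table), and its ratio was at percentile 26.5. Six2, a factor of nephron progenitors and of facial and limb mesenchyme, was the least abundant of the Six-family genes, with means of 1.98 and 2.28 and a quotient of 1.15 (FDR 0.656, authors' deposited table). At percentile 53.9 its ratio was that of a middling gene. None of the 3 had an unadjusted p under 0.05, which does not show that they were equal in both groups.

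**Figure D2:**
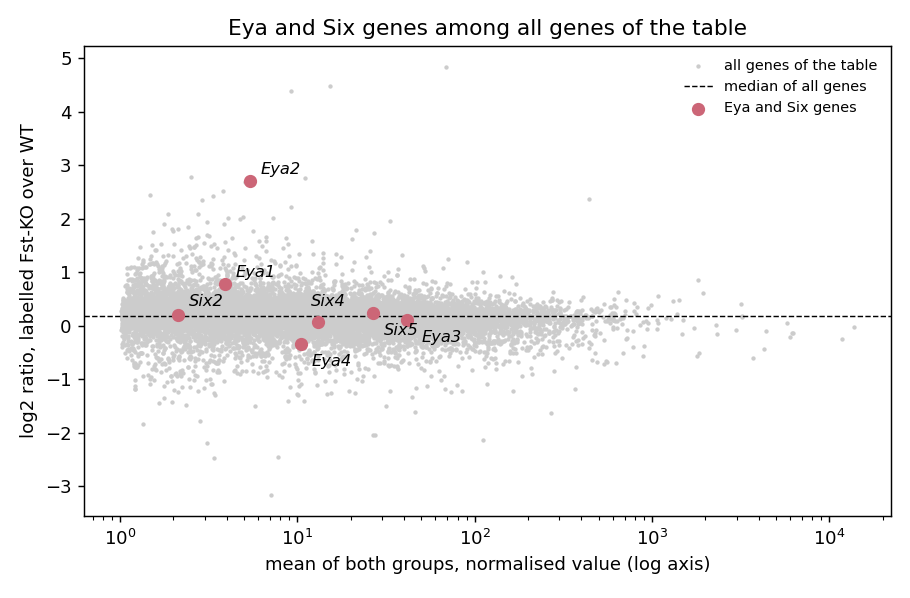
Log2 ratio of labelled Fst-KO over WT against the mean of both groups (log axis) for all 15648 genes (grey) and the 7 Eya and Six-family genes (red), with the median of all genes as a dashed line at 0.18. Eya2, at 2.70, stands apart at the upper edge, Eya1 (0.77) lies in the upper and Eya4 (-0.34) in the lower part of the cloud, and Eya3 and the Six-family genes lie between the quartiles of all genes (ratios of 1.04 and 1.24).

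Levels of different genes can be compared only per length, and it is not given whether the deposited values were corrected for it. Over 15082 genes matched by symbol to the GENCODE annotation, the mean correlated weakly with the summed exon length (Spearman's rho 0.28 across genes, which share libraries and are not replicates). Divided by that length in kilobases, the WT values were 8.16 for Six5, 7.07 for Eya3, 1.24 for Eya4, 1.17 for Six4, 0.935 for Six2, 0.487 for Eya2 and 0.370 for Eya1. In the libraries labelled Fst-KO the order per kilobase was Six5 at 9.63, Eya3 at 7.63, Eya2 at 3.16, Six4 at 1.23, Six2 at 1.07, Eya4 at 0.979 and Eya1 at 0.632. Per kilobase, Six5 and Eya3 led in both groups, Eya1 was the lowest in both, and Eya2 passed Eya4, Six4 and Six2. If the values were already corrected for length, the undivided means would give the order. By those, Eya3 and Six5 also led, but Eya2 was lowest in WT (1.44) and Six2 in the libraries labelled Fst-KO (2.28). In the latter Eya2 (9.37) then stayed below Six4 (13.3). Without values per library it cannot be said which neighbours in these orders differ beyond their spread.

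The 7 genes lie on 7 chromosomes, so their values come from separate loci. In mm10, with GENCODE M21 coordinates, Eya1 spans chr1:14168954-14310235 on the minus strand and Eya2 chr2:165595032-165771727 on the plus strand. Eya3 lies at chr4:132638987-132724765 (plus) and Eya4 at chr10:23102963-23350786 (minus). Six2 spans chr17:85684277-85688274 (minus), Six4 chr12:73099609-73113456 (minus) and Six5 chr7:19094594-19098549 (plus). Paralogs can share reads, and this was measured on the annotated transcripts: of all stretches of 50 bases in Eya1, Eya2, Eya3 and Six5 transcripts, 0% occurred in transcripts of another gene on either strand. The share was 0.053% for Eya4, 0.486% for Six4 and 1.03% for Six2. The read length is not given, and shorter reads could be shared more often.

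Of the genes that overlap or flank Eya2, the 3 with a value lay closer to the median of all genes than Eya2 did. A processed pseudogene, Gm11460, overlaps Eya2 on the opposite strand and had means of 3.69 and 4.76 (ratio 1.29, FDR 0.357, authors' deposited table). A lincRNA gene, Gm28163, also overlaps Eya2 on the opposite strand and had no value under that name. Whether the counting used strand is not given. In the annotated transcripts, no stretch of 50 bases of Eya2 occurred in these 2 genes on either strand, and shorter stretches were not searched. The next protein-coding genes on either side, Slc2a10 and Zmynd8, had ratios of 1.00 and 1.16 by the authors' deposited table. Six5 starts 772 bases after the end of Dmpk on the same strand, and Dmpk had means of 189 and 158, a quotient of 0.837 (FDR 0.369, authors' deposited table), on the other side of 1 from Six5.

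Six-family proteins bind the MEF3 element of muscle promoters, known from the promoter of Myog, the gene for myogenin. The core letters TCAGGTT were searched on both strands of the 250 bases before each start site in the RefSeq promoter table (GRCm38.p6, the assembly that mm10 names). They occurred for 1101 of 27025 genes, or 4.07%. Of the 7 genes 5 have a promoter in that table (Eya1 and Eya2 do not), and 1 of these 5, Six4, holds the letters. The Six4 and Myog stretches are printed because they show these letters near a start of a Six-family gene and in the known muscle setting. Each is given 5′ to 3′ on the strand of its gene, with the core in capitals. In Six4 (chr12:73113325-73113353, minus strand) the core reads as its reverse complement and ends 90 bases before 1 of the 2 start sites that the RefSeq table gives for this gene. The annotations differ here: GENCODE M21 starts Six4 farther upstream, at 73113456, and places the printed stretch 103 to 131 bases inside the gene, in its 5′ UTR. The window before the other RefSeq start site does not hold the letters. In Myog (chr1:134289909-134289937, plus strand) the core ends 77 bases before the only RefSeq start site and lies upstream of the GENCODE start as well.
Six4: ggcctgggggaAACCTGAtcggccagatc
Myog: tagaggggggcTCAGGTTtctgtggcgtt
A match is a description of letters and not a measured site. Myog had means of 141 in WT and 116 in the libraries labelled Fst-KO (ratio 0.823, FDR 0.545, authors' deposited table), and Six4 was at 1.04. Of the listed genes with a promoter in the RefSeq table, the letters stood in this window for 2 of 7 myogenic regulators (Mef2c and Myog) and 1 of 7 reported targets of Six-family proteins (again Myog). They were found for 0 of 12 fast fibre genes, 0 of 9 slow fibre genes, 0 of 14 Pax, Dach and co-repressor genes, 0 of 12 placode and pharyngeal factors and 0 of 7 mesenchymal partners.

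The upstream and partner genes of the network lay on both sides of the median of all genes. Of 18 listed symbols of Pax genes, Dach genes and co-repressors, 12 are in the table, with a median ratio of 1.13 beside 1.14 for all genes. Their ratios ran from 0.805 to 1.29, with 4 below the first quartile of all genes (1.04) and 3 above the third (1.24). None had an FDR under 0.05. At an unadjusted p under 0.05, against 13.4% of all genes higher and 2.17% lower, there was 1 higher gene. This was the co-repressor gene Skil, at 1.28 by the authors' deposited table, named after its values were seen. Ski, its relative, had a ratio of 1.12 and Aes, a short Groucho-type protein gene, 0.922 by the authors' deposited table, and these are the 2 most abundant of the list. Among the others, Dach1 had a ratio of 1.24, Pax9 of 1.18, Pax7 of 0.976 and Pax1 of 0.823 by the authors' deposited table, all named after their values were seen. Pax7 marks muscle satellite cells and Pax9 the tooth mesenchyme and tongue papillae.

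Genes reported as direct targets of Six-family proteins lay on both sides of 1. The median ratio of 10 in the table was 1.12, with 7 above 1, 3 below and 0 past the FDR. At an unadjusted p under 0.05, against 13.4% of all genes higher and 2.17% lower, 1 gene was lower. That gene was Ckm, the muscle creatine kinase, with means of 718 against 1058 in WT, a ratio of 0.678 and an FDR of 0.317 by the authors' deposited table. Aldoa, a glycolytic enzyme with a muscle promoter, had a ratio of 0.844 by the authors' deposited table. Myog was the third of those below 1. Those above 1 ran from Myc at 1.06 to Ezr at 1.37 by the authors' deposited table, 2 genes named after their values were seen.

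In the muscle branch of the network the myogenic regulators had a median below that of all genes. Their median ratio was 0.941 over 12 genes, with 5 above 1, 7 below, and only 1, Myod1, above the median of all genes. None passed the FDR. At an unadjusted p under 0.05 there was 1 lower gene, Myf6, at 0.681 by the authors' deposited table, against 2.17% of all genes in that direction. Myod1 had a ratio of 1.27 by the authors' deposited table. Both were named after their values were seen. The 2 most abundant, the MADS-box factor genes Mef2c and Mef2a, had ratios of 0.783 and 0.879 by the authors' deposited table.

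Fast and slow fibre genes had medians on opposite sides of 1. The 16 fast fibre genes had a median ratio of 0.678, with 14 below 1. Past the FDR were 0 of them, against 0.0767% of all genes higher and 0.0192% lower. Against 2.17% of all genes lower and 13.4% higher, an unadjusted p below 0.05 was found for 4, all lower. These were Mybpc2 (a fast myosin-binding protein) at 0.353, Myoz1 (a Z-disc protein) at 0.473, Casq1 (the fast calsequestrin) at 0.538 and Eno3 (muscle enolase) at 0.627 by the authors' deposited table. The 9 slow fibre genes had a median ratio of 2.03, with 8 above 1. In the higher direction 4 of them passed the FDR, against 0.0767% of all genes. Myh7b, a slow-type myosin heavy chain, rose from 1.36 to 8.81 (ratio 6.47, FDR 0.0436, authors' deposited table), and the others were Myh7, Myl3 and Tnnc1, with ratios of 28.4, 20.98 and 3.86. An unadjusted p below 0.05 was found for 6 higher genes of this list and for 1 lower one, Casq2, the slow calsequestrin, at 0.625 by the authors' deposited table. The slow list holds genes already known to lead this table, so its count is not independent evidence of a direction. The summed means of the slow list were 1149 in the libraries labelled Fst-KO and 1128 in WT, a ratio of 1.02, and those of the fast list 2877 and 4037. Casq2 (430 against 688 in WT) and Atp2a2 (268 against 257) hold most of both slow sums. The ratio of 1.02 therefore mostly follows Casq2 and Atp2a2 and does not describe the other slow fibre genes. In the same group means Eya2 had a ratio of 6.49, while Six4, at 1.04, was at percentile 26.5 of all genes. Whether Eya2 has a part in the fibre gene differences was not tested.

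The plot of the network lists sets these groups beside the Eya and Six-family genes.

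**Figure D3:**
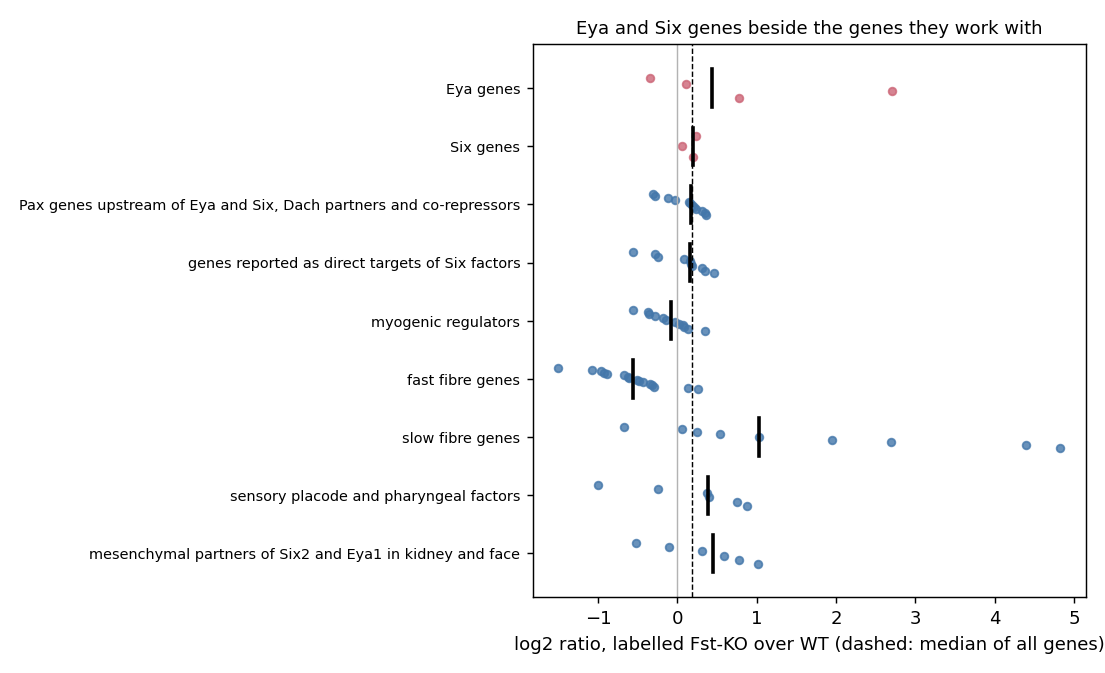
Log2 ratio of labelled Fst-KO over WT for each Eya and Six-family gene (red) and each gene of 7 lists (blue), with the list median as a black bar, the median of all genes dashed at 0.18 and 0 as a grey line. The slow fibre genes reach above Eya2, with a median of 1.02, the fast fibre genes lie mostly below 0, with a median of -0.56, and the Pax, Dach and co-repressor genes lie on both sides of the dashed line.

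Outside muscle, the lists that surround Eya1 and Six2 had medians above that of all genes. Of 14 sensory placode and pharyngeal factors 6 are in the table, with a median ratio of 1.31. At an unadjusted p under 0.05, 3 were higher, namely Sox2 at 1.83, Fgf10 at 1.68 and Prox1 at 1.30, and 1 was lower, Pou4f1 at 0.499, by the authors' deposited table. Sox2 is a factor of taste and dental progenitors, and Fgf10 a mesenchymal growth factor of the tongue and many buds. Mesenchymal partners of Six2 and Eya1 had a median of 1.37 over 6 of 10 genes. Again 3 were higher at an unadjusted p under 0.05, Osr2 at 2.01, Hoxa2 at 1.71 and Osr1 at 1.503, and 1 was lower, Cited1 at 0.695, by the authors' deposited table. Over all genes the shares at that p were 13.4% higher and 2.17% lower. No gene of either list passed the FDR, against 0.0767% of all genes higher and 0.0192% lower, and Six2 itself was at 1.15. Hoxa2 (1.77 against 1.03 in WT) and Pou4f1 (0.807 against 1.62) had means near the low end of the table. Ratios of such low means depend strongly on any constant added to them.

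Of the markers of 8 cell types that the dissected tissue could hold, 0 had an FDR under 0.05 by the authors' deposited table in either direction. Over all genes that threshold was met by only 0.0767% higher and 0.0192% lower, so the count of 0 says little. The list medians lay on different sides of 1.14, that of all genes. Skeletal muscle markers had a median ratio of 0.778, with 11 of 15 below 1, and their summed mean was 9203 in the libraries labelled Fst-KO against 12304 in WT. Of these markers, Myl1, Mylpf, Tnnt3 and Tnni2 are also in the fast fibre list and Ckm among the reported targets. These lists are therefore not separate observations. All 13 measured mesenchyme markers were above 1 (median 1.33, summed means 6626 against 4948), as were all 10 basal epithelium markers (median 1.27, summed means 7843 against 6096). The list of keratinised epithelium markers had a median of 0.429 over 11 genes, with 8 below 1. Its sum was higher, 6680 against 5457, because Krt4 and Krt13 hold most of it. Their ratios were 1.80 and 1.32 by the authors' deposited table. Krt4 and Krt13 are not particular to keratinised epithelium, so the sum does not describe that cell type. The median was 1.30 over 11 nerve and Schwann cell markers (summed means 183 against 166), 1.42 over 8 leukocyte markers (74.6 against 52.9), 1.00 over 8 endothelium markers (243.4 against 243.9) and 0.424 over 4 salivary gland markers (8.48 against 20.5). At an unadjusted p under 0.05, 7 mesenchyme, 4 basal epithelium, 4 leukocyte, 2 nerve and 1 muscle markers were higher, and 6 keratinised epithelium, 4 muscle and 1 salivary markers were lower, by the authors' deposited table. Over all genes the shares at that p were 13.4% higher and 2.17% lower. Muscle markers were among those with values, although the tissue label names epithelium. No gene of the table was at 0, since the smallest geometric mean of both groups was 1.01. The lack of zeros among the markers therefore says nothing of cell types. In such bulk tissue, fewer cells of a type and less RNA per cell cannot be told apart. The part of these markers in the differences of Eya1, Eya2 and Eya4 was not tested.

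**Figure D4:**
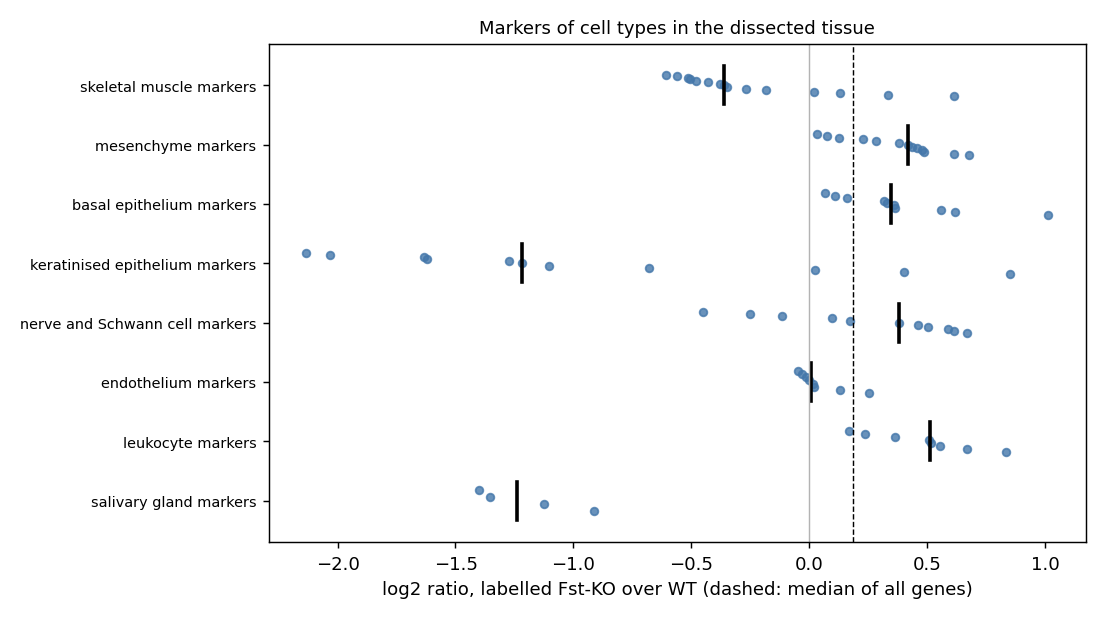
Log2 ratio of labelled Fst-KO over WT for markers of 8 cell types, 1 point per gene, with the list median as a black bar and the median of all genes dashed at 0.18. Mesenchyme, basal epithelium and leukocyte markers lie on the higher side, all above 0, while most muscle markers and all 4 salivary markers lie below 0 and the endothelium markers are split around it, 4 on each side.

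The genes most like Eya2 in pattern were found by the distance between log2 group means, over the 2 means, leaving out predicted genes and clone names. The nearest was Myh7b, at a distance of 0.12, followed by Rps29 at 0.30, Wfdc18 at 0.55, Sprr2a2 at 0.65 and Cma1 at 0.75. Their ratios were 6.47, 7.81, 4.06, 3.73 and 3.13 by the authors' deposited table. Of the 5, Myh7b and the mast cell protease gene Cma1 had an FDR under 0.05 (0.0436 and 0.0386), while Rps29, a ribosomal protein gene with processed copies elsewhere in the genome, had an FDR of 0.392 by the authors' deposited table. Sprr2a2 belongs to a family of near-identical genes, so reads can have been divided among its members. Eya2 and Rps29 had similar group means and p-values of 1.40e-05 and 0.173 by the authors' deposited table. Likeness over 2 means says nothing of whether the genes varied together between libraries.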

How the data were processed

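RNA of 6 libraries, 3 per group, was analysed from 1 table of group values that the authors deposited. Per the submitters' processing notes, BWA 0.7.12, Partek and build mm10 were used, and the series text names Partek's gene-specific analysis as the test. The sources used here give neither the counting and its strand nor the annotation or normalisation. The group means are a normalised signal, named least-squares means per the file headers. The ratio is the authors' quotient of these means and equalled it for all 15648 genes (relative tolerance 1e-06). The p-value and FDR are the authors', and a Benjamini-Hochberg adjustment over all 15648 genes gave the same FDR. The column of totals equalled 3 times the sum of both means. Since the labels do not say that libraries came from separate animals, p-values cover no more than the spread of these 6, possibly technical. With 3 against 3, an exact permutation test could not go below 0.1, and none could be run without values per library.

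The log2 ratios, medians, ranks, distances and re-adjusted p-values were computed with Python 3.11.15, numpy 2.4.6 and pandas 2.3.3, and the adjustment and ratio steps were tested on simulated data. The planned count and per-library tests were replaced by the deposited FDR. The genes and the lists were chosen with earlier results of these data known. From each list the genes past the FDR were named, or otherwise up to 4 of the largest log2 differences at an unadjusted p under 0.05, or, with fewer than 2 such genes, the 2 of highest mean. The 5 genes nearest to Eya2 in both log2 means, and genes overlapping or next to a member, were also named. The result of 1 further list and gene is not reported here. Alternatives were pseudocounts, scalings, filters on low values and other adjustments.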

Additional observations from a re-analysis of the deposited data

How the results depend on the processing

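No paired analysis was possible because the deposited table holds group means and no value per library. For the same reason no replicate was left out, and no other normalisation was fitted. A log2 value was counted as moved when it changed by over 0.1.

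The count of members with an FDR under 0.05 was 1, Eya2, also at an FDR under 0.1 and when p-values were adjusted again over the 15436 genes with both means of at least 1 (Eya2 then at 0.0240). It was 0 over the more abundant 7824 genes (mean not below the median), a set that by construction leaves out Eya2, and 0 with the Benjamini-Yekutieli adjustment, under which 0 of all genes passed and Eya2 had 0.224. Over all genes the count of 15 became 28 at an FDR under 0.1, 14 with both means of at least 1, 4 over the more abundant genes and 0 with Benjamini-Yekutieli. By the deposited values, 2 members have an unadjusted p under 0.05.

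Relative to the median of all genes, log2 ratios were 2.51 for Eya2, 0.59 for Eya1, -0.074 for Eya3, -0.53 for Eya4, 0.017 for Six2, -0.12 for Six4 and 0.054 for Six5. Thus Eya3 and Six4 changed sign. With group sums made equal without the most abundant 1% of genes they were 2.57, 0.65, -0.015, -0.47, 0.075, -0.062 and 0.11 in the same order. With a pseudocount of 1, Eya2 had 2.08 and Eya1 0.61, and with 10 they had 0.76 and 0.21, Eya4 -0.18 and Six2 0.035.

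List medians relative to the median of all genes were -0.0094 for the Pax, Dach and co-repressor genes, -0.023 for reported targets, -0.27 for myogenic regulators, -0.74 for fast and 0.84 for slow fibre genes, 0.20 for placode factors and 0.27 for mesenchymal partners. With equal sums they were 0.049, 0.036, -0.21, -0.69, 0.90, 0.26 and 0.32. A pseudocount of 10 gave 0.73 for slow fibre genes, 0.13 for placode factors and 0.093 for mesenchymal partners. The mean in place of the median gave 1.67, 0.19 and 0.34 for these 3 lists. Over abundant genes only, slow fibre genes had 0.53. The Pax, Dach and co-repressor genes and the reported targets changed sign on the first of these scales, and no other list did.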
